A study of Mus musculus with 4 samples.

Results

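C1q macrophages of mouse liver, the cells described here, were taken from 4 single-cell RNA libraries of sorted liver monocytes and macrophages as those in which C1qa, C1qb and C1qc together gave at least 0.3% of a cell's unique molecular identifiers (UMIs, one per captured RNA molecule) and in which fewer than 3 of Trem2, Gpnmb, Spp1, Lpl and Cd9, genes of lipid-associated macrophages, had a UMI. Cells were barcodes with at least 200 genes detected and at most 10% of UMIs from mitochondrial genes. The rule found 132 C1q macrophages among 9609 cells. The RNA readout itself therefore chose the cells, and the 8 genes of the rule are given below as a description with no test. All mice were male wild-type C57BL/6, obtained at 8 weeks of age, and were fed for 6 weeks. A pair of libraries came from mice on a normal chow diet (NCD) and a pair from mice on a methionine- and choline-deficient diet (MCD), which causes fat accumulation and inflammation in the liver. Cells had been sorted as 7AAD-negative, CD45-positive, Ly6G-negative and CD11b-intermediate. For F4/80 the gate is described as low in the series text but as high on each sample, and which was used could not be told from the files. The labels do not say whether a library held 1 mouse or a pool, nor whether the diets were prepared on separate days, so diet and preparation cannot be told apart and p-values measure the spread between these libraries, which may be technical.

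C1q is the recognition part of the classical complement pathway. It is built from 3 chains, encoded by C1qa, C1qb and C1qc side by side on mouse chromosome 4, and tissue macrophages are its main source in the body. C1q binds immune complexes and dying cells, and macrophages that make it also carry receptors for taking up dead cells. Kupffer cells are the resident macrophages of the liver sinusoids. They are known by Vsig4, a complement receptor, Clec4f, a lectin made almost only by rodent Kupffer cells, Timd4, a receptor for phosphatidylserine on dying cells, Cd5l, a secreted scavenger protein, and Folr2, a folate receptor. Macrophages recruited from blood monocytes into an injured liver can gain C1q and, later, some of these genes.

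The start regions of a pair of C1q genes and of Vsig4 are printed because the cells were chosen by the first kind and the Kupffer content is read from the second. Each run covers 250 bases before and 50 after the RefSeq gene start in build GRCm38.p6, on the gene's own strand (minus for all 3 genes). Capitals mark GAGGAA or its reverse TTCCTC, the core letters bound by the macrophage factor PU.1 (encoded by Spi1), and TGCTGA or its reverse TCAGCA, part of the site that MAF factors bind. These 2 motifs do not overlap in the printed runs.
C1qb, chr4:136886151-136886450: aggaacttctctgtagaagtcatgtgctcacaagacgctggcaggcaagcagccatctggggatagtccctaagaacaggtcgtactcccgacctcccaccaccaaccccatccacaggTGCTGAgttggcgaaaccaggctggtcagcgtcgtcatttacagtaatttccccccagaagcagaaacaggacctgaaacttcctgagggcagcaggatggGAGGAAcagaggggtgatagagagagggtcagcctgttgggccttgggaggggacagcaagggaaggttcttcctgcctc
C1qc, chr4:136892865-136893164: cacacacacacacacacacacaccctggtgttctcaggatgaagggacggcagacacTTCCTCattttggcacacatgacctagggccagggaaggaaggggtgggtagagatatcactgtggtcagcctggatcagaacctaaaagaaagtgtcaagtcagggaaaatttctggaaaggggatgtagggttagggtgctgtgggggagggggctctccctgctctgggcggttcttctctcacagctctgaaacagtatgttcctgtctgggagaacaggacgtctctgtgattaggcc
Vsig4, chrX:96293389-96293688: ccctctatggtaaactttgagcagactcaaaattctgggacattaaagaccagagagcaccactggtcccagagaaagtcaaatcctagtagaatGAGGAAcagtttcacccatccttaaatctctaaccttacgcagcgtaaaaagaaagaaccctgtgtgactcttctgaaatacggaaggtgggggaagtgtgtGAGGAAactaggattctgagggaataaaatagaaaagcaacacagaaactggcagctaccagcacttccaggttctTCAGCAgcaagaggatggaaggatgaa
The C1qb run held GAGGAA from position -30 and TGCTGA from position -131 relative to the gene start. The C1qc run held TTCCTC from position -193 and no MAF letters. The Vsig4 run held GAGGAA from positions -155 and -53 and TCAGCA from position 23. On either strand, the PU.1 letters were found in 28.3% and the MAF letters in 19.5% of 32851 RefSeq promoters of the same length, so these matches are a description of the letters and not of binding. C1qa was not in the promoter table.

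The 4 libraries differed in depth along the diet. The NCD libraries (replicates 1 and 2) held 2783 and 2699 barcodes with 7518597 and 7428431 UMIs, and the MCD libraries 3349 and 3475 barcodes with 32975974 and 37772284 UMIs. The limits left 1735 and 1786 cells on NCD and 2950 and 3138 on MCD. The C1q macrophages numbered 38, 29, 30 and 35 in NCD 1, NCD 2, MCD 1 and MCD 2. Their median UMIs per cell were 2307.5 and 1876 on NCD against 13750.5 and 14476 on MCD, and their median mitochondrial share was 7.15% and 7.58% against 3.33% and 3.36%. Their summed UMIs were 106357 and 59976 on NCD and 389985 and 460089 on MCD, so values on NCD rest on fewer molecules. Depth and mitochondrial share moved with diet in every comparison below, and their part in the results was not tested except where cells thinned to 1000 UMIs are given. Pairs of libraries shared 4 to 12 cell barcodes, none of them among the C1q macrophages. No doublet caller was run.

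The label was checked against markers in cells thinned to 1000 UMIs, which takes the depth difference away. H2-Aa, an MHC class II chain, had a UMI in 97.1%, 93.1%, 100% and 94.3% of C1q macrophages in NCD 1, NCD 2, MCD 1 and MCD 2, and the lysozyme gene Lyz2 in 94.3%, 79.3%, 93.1% and 85.7%. Csf1r, the receptor for the macrophage growth factor CSF1, was found in 60%, 31%, 72.4% and 51.4%. Adgre1, which encodes the sorting antigen F4/80, was found in 40%, 31%, 10.3% and 25.7%, and Ccr2, the receptor that brings monocytes into tissue, in 45.7%, 13.8%, 34.5% and 45.7%. The cells thus carried macrophage and class II genes. Before thinning, at least 2 of 7 general macrophage markers, Lyz2, Csf1r and Adgre1 among them, were found in 100%, 79.3%, 96.7% and 100% of C1q macrophages. In all other cells of the same libraries the shares were 56.8%, 61.2%, 83.0% and 87.8%. Most other cells carried these markers too, so the markers alone do not set the C1q macrophages apart. Most C1q macrophages had no UMI of a Kupffer gene (28 of 38, 20 of 29, 27 of 30 and 33 of 35 before thinning). Most are therefore called C1q macrophages here, and Kupffer-like only where several Kupffer genes were present. In Ly6c2 monocytes of the same libraries (other cells with Ly6c2 at 0.1% or more and C1q under 0.3% of UMIs), which should not make C1q, 1.6%, 1.38%, 1.16% and 1.31% of thinned cells had a C1q UMI at median depths of 1979, 2123.5, 13349 and 12904 UMIs. The limit on C1q was part of how these monocytes were defined. In cells with endothelial markers the thinned shares with a C1q UMI were 5.83%, 1.51%, 11.4% and 6.92%, and in the few B cells of the MCD libraries 3.13% and 5.88%.

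Genes of other cell types were also read in the C1q macrophages. The 9 endothelial markers (of the lining cells of liver sinusoids) summed to 1307, 333, 438 and 430 UMIs of the gene per 1000000 UMIs of the summed cells (CPM, the unit of every level below) in NCD 1, NCD 2, MCD 1 and MCD 2, with 9, 6, 8 and 9 of the 9 detected. In all other cells of the same libraries the sums were 2193, 3591, 666 and 1091. The 7 general macrophage markers summed to 6591, 6069, 10308 and 9120 CPM in the C1q macrophages and to 4889, 5005, 15010 and 17964 in all other cells. Their sum was thus higher in C1q macrophages on NCD and lower on MCD. In Ly6c2 monocytes it was higher than in C1q macrophages in every library (11143.5, 10058, 24243 and 31426). Of the C1q macrophages, 11, 6, 11 and 15 carried at least 2 markers of some other lineage. Hepatocyte markers summed to between 17 and 47 CPM. Erythroid markers summed to 662 CPM in MCD 1 and to at most 4.35 elsewhere, NK cell markers to 500 in NCD 2, type 1 dendritic cell markers to 450 in NCD 2 and neutrophil markers to 191 in MCD 2. Of the 116 called genes that are listed or named below, 93 could still be tested without the cells carrying 2 or more such markers and 56 were called, and 96 and 56 without the cells that had a Kupffer UMI. C1qb and Trem2 of the rule are counted among the 116 and among all called genes, but their calls are not used as results. Among the genes whose diet change is given below, Mertk, Abca1, Itgax, F13a1, Plin2, Isg15, H2-DMa, Eif6 and Rad21 were tested but not called in either case. Klf2, Timp2, Plaur, Gtpbp4, Phb, Dtnbp1 and Erdr1 were tested but not called without the cells that had a Kupffer UMI, and Cd68, Ccl4, Cxcl10 and Amd1 without those carrying markers of other lineages.

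**Figure D1:**
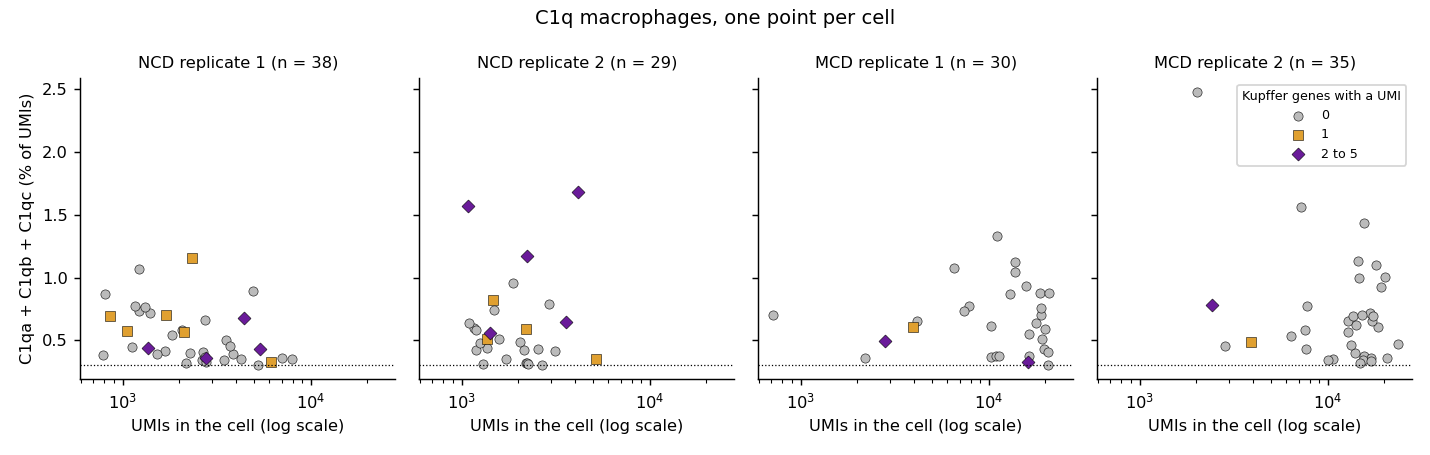
C1q share of UMIs (percent) against UMIs in the cell (log axis) for every C1q macrophage, 1 panel per library, with the threshold of 0.3% dotted and the symbol giving how many of the 5 Kupffer genes had a UMI. Median UMIs are 2307.5 and 1876 in the NCD panels and 13750.5 and 14476 in the MCD panels, and the C1q shares overlap between all 4.

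The threshold cut through a continuous range. Cells just inside it, with 0.3% to 0.4% of UMIs from C1q genes, numbered 15, 7, 7 and 9 in NCD 1, NCD 2, MCD 1 and MCD 2. Cells just outside it, with 0.2% to 0.3%, numbered 17, 14, 13 and 18. The upper limit removed C1q-rich cells with 3 or more of the 5 lipid-associated genes, which numbered 1 and 1 on NCD and 28 and 37 on MCD. The count of such cells depends on depth, since a cell with more UMIs shows more of the 5 genes.

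C1q macrophages were 2.19% of cells in NCD 1 (95% exact Clopper-Pearson interval 1.55% to 2.99%, counting error only, as for all intervals here) and 1.62% in NCD 2 (1.09% to 2.32%). They were 1.02% in MCD 1 (0.687% to 1.45%) and 1.12% in MCD 2 (0.778% to 1.55%). Both MCD libraries lay below both NCD libraries. The mean share was 1.91% ± 0.401 on NCD and 1.07% ± 0.0696 on MCD (SD, n = 2 each), a difference of -0.841 percentage points with an exact two-sided permutation p of 0.333, the smallest that 2 against 2 libraries can give. When all cells were thinned to 1000 UMIs before the rule was applied, the shares were 2.87% and 2.01% on NCD and 2.08% and 2.57% on MCD, the groups overlapped, and the difference was -0.115 points (exact permutation p = 1). With no upper limit on the lipid-associated genes the difference was 0.166 points in the other direction (exact permutation p = 0.667). Of the thinned members on MCD, 19 and 31 had carried 3 or more of those genes before thinning. The mitochondrial limit had also removed 36.7% and 32.8% of barcodes on NCD against 8.06% and 7.22% on MCD, and 45, 25, 1 and 1 of the removed barcodes were C1q-rich. In sorted and filtered cells, fewer cells of a type and less RNA per cell cannot be told apart.

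**Figure D2:**
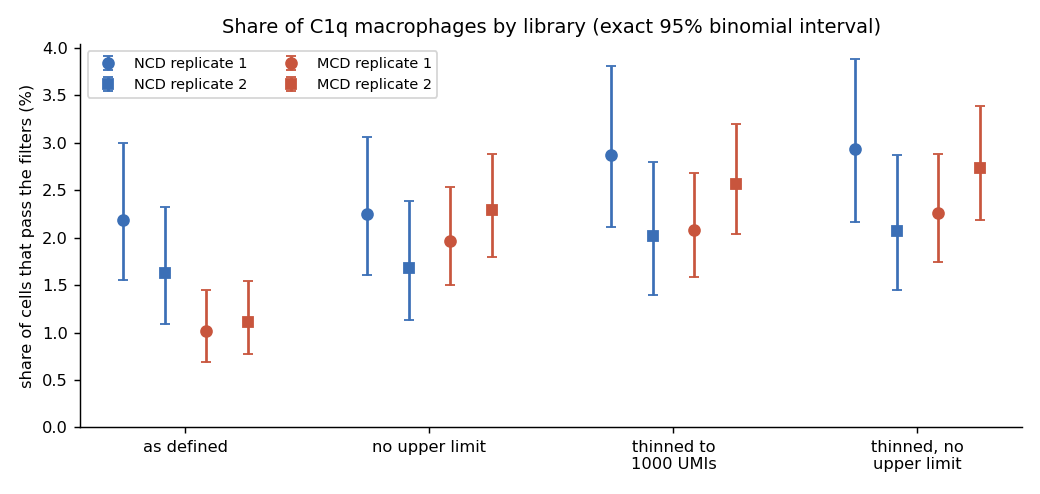
Share of cells that are C1q macrophages (percent) in each library as defined, without the upper limit on lipid-associated genes, after thinning to 1000 UMIs, and with both changes, with exact 95% binomial intervals as bars. As defined, the NCD libraries are at 2.19% and 1.62% and the MCD libraries at 1.02% and 1.12%, and in the other 3 settings the diets overlap.

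Among the cells kept, Kupffer-like content was low on both diets and uneven between the NCD libraries. On NCD the mitochondrial limit had removed 7 and 7 C1q-rich barcodes with 2 or more Kupffer genes, against 0 and 0 on MCD. Those barcodes are not counted below. Of the 132 cells, 12 had a UMI of at least 2 of the 5 Kupffer genes, 4 in NCD 1, 5 in NCD 2, 2 in MCD 1 and 1 in MCD 2. After thinning they were 0 of 35 cells in NCD 1 (3 counts of the total allow up to 8.57% of cells with such UMIs at this depth), 5 of 29 or 17.2% in NCD 2 (interval 5.85% to 35.8%), 0 of 29 in MCD 1 (up to 10.3%) and 1 of 35 or 2.86% in MCD 2 (0.0723% to 14.9%). The mean was 8.62% ± 12.2 on NCD and 1.43% ± 2.02 on MCD (SD, n = 2 each), and the difference of -7.19 points had an exact two-sided permutation p of 1. It rests on NCD 2, since without that library the difference was 1.43 points in the other direction. With 1 or more Kupffer genes as the limit, the thinned shares averaged 22.4% on NCD and 3.15% on MCD and did not overlap (exact permutation p = 0.333). In thinned Ly6c2 monocytes, no cell of any library had 2 Kupffer genes.

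The Kupffer genes were concentrated in a few cells. A single cell of NCD 2 held 63 UMIs of all 5 genes (14 of Vsig4, 17 of Clec4f, 4 of Timd4, 18 of Cd5l and 10 of Folr2), and another held 41 UMIs of all 5. In MCD 2, 1 cell gave all 9 Vsig4 and all 16 Clec4f UMIs of the library's C1q macrophages. Slc40a1, the iron exporter of Kupffer and other iron-recycling macrophages, stood at 1074 and 8906 CPM in the NCD cells with 2 or more Kupffer genes and at 141 and 84 in the remaining NCD members. Ccr2 had 0 UMIs in those 9 NCD cells and in the MCD 2 cell, but 3 and 1 in the pair of MCD 1 cells. Slc40a1 had 3 and 2 UMIs in the MCD 1 cells and 0 in the MCD 2 cell. Marco, a scavenger receptor of mouse Kupffer cells, had 0 UMIs in all 12 cells. A further 7, 5, 11 and 10 cells in NCD 1, NCD 2, MCD 1 and MCD 2 had 2 or more Kupffer genes without being members, and none of them reached 0.3% C1q. Their median C1q share was 0.0764%, 0.0330%, 0.0303% and 0.0476%.

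By gene, in CPM over all C1q macrophage UMIs, Vsig4 was at 169 and 867 on NCD and at 28.2 and 19.6 on MCD. The diets did not overlap for it, but 83.3% of the NCD 1 UMIs came from 1 cell. Its log2 fold change, MCD over NCD, was -4.25 ± 0.62 (SE, edgeR quasi-likelihood test, Benjamini-Hochberg adjusted p = 7.95e-04). Cd5l was at 47.0 and 650 on NCD and 17.9 and 4.35 on MCD, a log2 change of -4.71 ± 0.94 (edgeR adjusted p = 0.00673). Folr2 was at 113 and 383 on NCD and at 0 and 2.17 on MCD, a log2 change of -7.00 ± 0.87 (edgeR adjusted p = 2.75e-04) that rests on 35 UMIs on NCD and 1 on MCD. These 3 genes fell in the summed RNA, and both NCD libraries lay above both MCD libraries for each. The diets did not overlap for 59.8% of all tested genes, however. All 3 passed the filter on low counts only through their NCD levels, so their p-values are no independent support for a fall. Clec4f, at 9.40 and 484 on NCD and 15.4 and 34.8 on MCD, overlapped between diets and did not pass the filter on low counts. Timd4, with 11 UMIs on NCD and 0 on MCD, was at least 18.7-fold lower on MCD against a floor of 3 counts over the group, and it was not tested for the same reason. With no NCD 2 library, Cd5l and Folr2 were too low to be tested. Fewer Kupffer-like cells and less of each RNA per cell give the same sum.

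**Figure D3:**
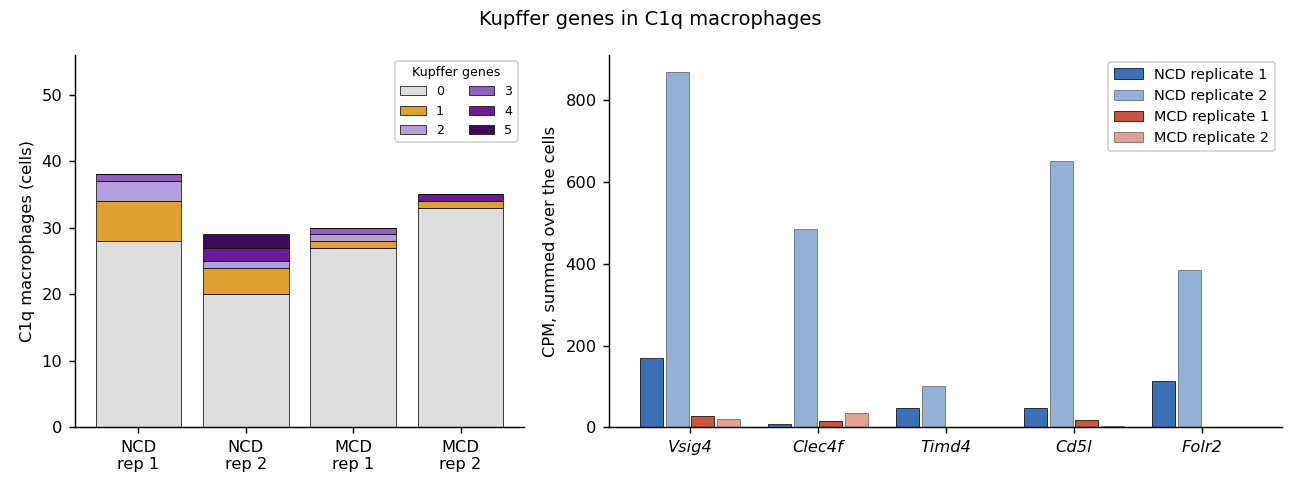
Left, the number of C1q macrophages in each library by how many of the 5 Kupffer genes had a UMI. Right, CPM of each Kupffer gene summed over those cells, where NCD replicate 2 is the highest library for all 5 genes (Vsig4 at 867) and Timd4 is at 0 in both MCD libraries.

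The 3 C1q chains, which chose the cells, did not keep one ratio across the diets. C1qa stood at 1711 and 2334 CPM on NCD and 1708 and 2126 on MCD. C1qb stood at 1674 and 1567 on NCD and at 3503 and 3276 on MCD, and C1qc at 1467 and 2334 against 1300 and 1239. C1qb thus gave 34.5% and 25.1% of the C1q UMIs of the members on NCD and 53.8% and 49.3% on MCD. All other cells, including the C1q-rich ones removed by the upper limit, showed 35.9% and 32.4% on NCD and 57.6% and 53.7% on MCD. UMI counts here are not divided by gene length, so the chains are compared across libraries and not with each other. The chains carry no test because the sum of the 3 chose the cells. The 5 genes of the upper limit were low by construction, with Trem2 at 56.4 and 0 on NCD and 174 and 122 on MCD.

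**Figure D4:**
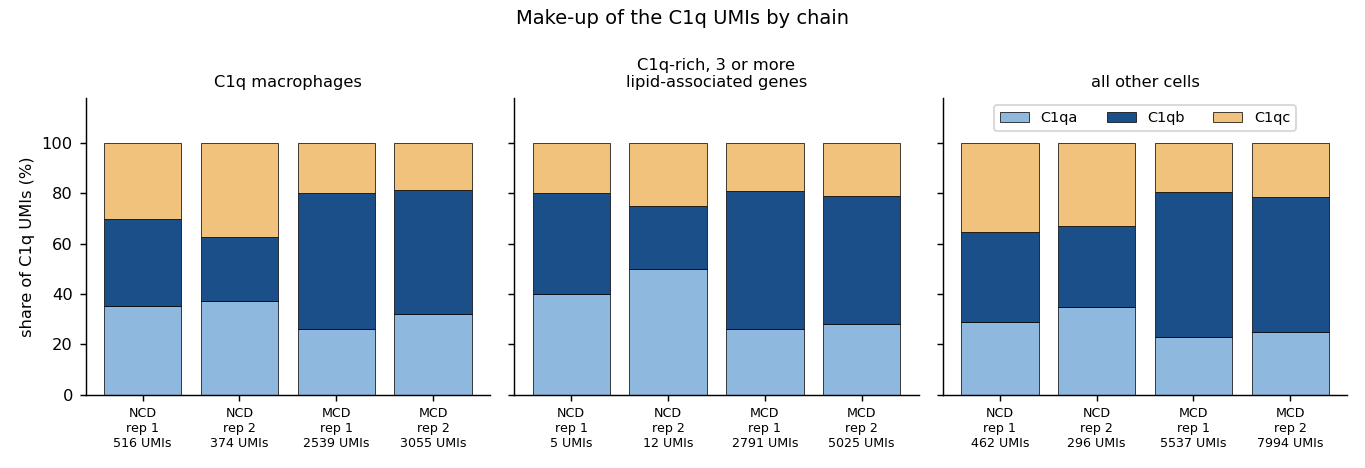
Share of C1q UMIs (percent) given by each chain in the C1q macrophages, in the C1q-rich cells with 3 or more lipid-associated genes, and in all other cells, which include the latter, with the number of C1q UMIs under each bar. C1qb gives 25.1% to 34.5% in the NCD C1q macrophages and 49.3% to 53.8% in the MCD ones, and the NCD bars of the middle panel rest on 5 and 12 UMIs only.

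Against all other cells of their own library, the C1q macrophages were described by the 15 genes with the largest ratio in the library where the ratio was smallest (20 CPM added to both values). These are a description with no test, because expression in these cells chose them. Axl, a receptor for the uptake of dying cells, led the list at 329 against 38.1 CPM in NCD 1, 500 against 33.4 in NCD 2, 390 against 83.6 in MCD 1 and 424 against 80.0 in MCD 2. Apoe, a lipid carrier protein, was 2.46 to 8.19 times the level of the other cells, and Nr1h3, which encodes the sterol sensor LXR alpha, 3.14 to 6.79 times. Cd81, a tetraspanin, was 3.26 to 5.46 times and Lgmn, a lysosomal protease, 2.42 to 5.67 times. The class II genes H2-Aa (2.48 to 2.93 times), H2-Eb1 (2.65 to 3.15) and Cd74 (2.40 to 2.83), the last of which encodes the class II invariant chain, held nearly the same ratio in all 4 libraries. Aif1, Fcgr4, Itgb5, Rgs1, Cxcl16, Frmd4b and AW112010 completed the list. In the other direction, the monocyte gene Chil3 was at 0.0855 to 0.209 times and S100a4 at 0.232 to 0.404 times the level of the other cells.

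Diet was compared within the C1q macrophages by summing their UMIs per library. Of 3586 genes that passed the filter on low counts (of 27998 shared genes), 480 or 13.4% were called at an edgeR quasi-likelihood adjusted p under 0.05. Higher on MCD were 253 (7.06%) and lower 227 (6.33%), and the median log2 change of all tested genes was 0.02. The diets did not overlap for 59.8% of tested genes, so a lack of overlap alone says little in 2 against 2 libraries. The change rose with GC content across genes, from -0.515 on the log2 scale at 39.14% GC to 0.792 at 58.78%, and with this trend removed 138 genes were called higher and 222 lower. Among genes given below, H2-DMa, Cd68, Spi1, Isg15, Plin2, Ctsc, Wwp1, Dtnbp1, Arfgap2, Eif6, Erdr1 and Cenpb lost their calls with the GC trend removed. DESeq2 called 94 higher and 79 lower, and thinned cells gave 127 higher and 126 lower of 776 tested. Id3, Itgax, H2-DMa, H2-DMb1, Cd68 and Cxcl10, all given below, were tested but not called after thinning.

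Several genes of vessel-associated tissue macrophages and of wider Kupffer identity fell. Of the 14 genes on the interstitial macrophage list, 8 were tested and called lower (median log2 change -3.78, against 0.02 for all genes). Lyve1, Pf4, Fcna, Ltc4s, Igfbp4 and Wwp1 passed the low-count filter only through their NCD levels, so the count and median are no support for a fall of the list. Without the cells that had a Kupffer UMI, 3 of the list could be tested and 2 were lower. Lyve1, a hyaluronan receptor, was at 423 and 467 CPM on NCD and at 2.56 and 2.17 on MCD, a log2 change of -7.26 ± 0.47 (SE, edgeR adjusted p = 2.24e-06). Both NCD libraries were far above both MCD libraries. Its NCD UMIs lay in 8 and 3 cells, however, with 40.0% and 75.0% from 1 cell, and without members that had a Kupffer UMI it stood at 294 and 0 on NCD. Pf4, a platelet-type chemokine also made by macrophages, was at 668 and 550 on NCD and 10.3 and 23.9 on MCD (log2 change -5.08 ± 0.38, edgeR adjusted p = 6.73e-06). Mrc1, the mannose receptor CD206, was at 527 and 734 on NCD and 48.7 and 84.8 on MCD (-3.16 ± 0.33, edgeR adjusted p = 9.71e-05). Mrc1 was spread over 25 and 15 cells on NCD. Mrc1 and Pf4 also fell without the members that had a Kupffer UMI, by 2.58 and 3.51 on the log2 scale (edgeR adjusted p = 0.0027 and 0.0041). Ltc4s, a leukotriene synthase, fell by 4.41. Sinusoidal endothelial cells also express Lyve1 and Mrc1, and the endothelial marker sum was 1307 and 333 on NCD against 438 and 430 on MCD. Without members carrying 2 or more markers of other lineages, Mrc1 fell by 2.89 and Pf4 by 5.24, while Lyve1 stood at 176 and 23.6 on NCD and was too low to be tested.

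Of the wider Kupffer list, 12 of 20 genes were tested, 7 fell and 1 rose (median log2 change -2.34). Slc40a1, Vcam1, Cdh5, Cd163, Ccl24 and Clec1b passed the low-count filter only through their NCD levels. The count and median are therefore no support for a fall of the list. Slc40a1 was at 263 and 1917 CPM on NCD and at 12.8 and 6.52 on MCD (log2 change -6.66 ± 0.82, edgeR adjusted p = 2.68e-04). Vcam1, an adhesion molecule, was at 273 and 450 on NCD and 15.4 and 23.9 on MCD (-4.06 ± 0.41, edgeR adjusted p = 8.45e-05). Both genes were higher in each NCD library than in each MCD library, and Slc40a1 varied most between the NCD libraries. Cdh5, an endothelial junction gene, fell by 4.80 but lost its call without MCD 1 or MCD 2 (edgeR adjusted p = 0.131 and 0.143). Id3, a regulator needed for Kupffer cells, went the other way, at 724 and 800 on NCD and 1910 and 1832 on MCD (1.32 ± 0.20, edgeR adjusted p = 0.00102). The Id3 call was lost with thinning. Without the members that had a Kupffer UMI, Vcam1 fell by 3.70, Id3 rose by 1.17, and Slc40a1 was down to 2 and 4 UMIs on NCD.

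Of the complement genes outside C1q, 11 were tested, 5 fell and 1 rose (median log2 change -0.78). Cd55 and C4b passed the low-count filter only through their NCD levels, so the count is no support for a fall of the list. Cd55, which shields cells from complement, was at 132 and 167 CPM on NCD and 5.13 and 6.52 on MCD (log2 change -4.50 ± 0.54, edgeR adjusted p = 2.24e-04). C4b fell by 5.0, a call lost without MCD 1 or MCD 2 (edgeR adjusted p = 0.255 and 0.347). Itgax, which encodes the complement receptor chain CD11c, rose from 103 and 83.4 to 269 and 261 (log2 change 1.48, edgeR adjusted p = 0.0137), a call lost without the cells that had a Kupffer UMI (0.97, 0.135) and without those with other-lineage markers (0.92, 0.174). Of 15 tested efferocytosis and scavenger receptor genes, 5 fell and none rose (median -0.26). Besides Mrc1 these were the fatty acid receptor gene Cd36 (329 and 150 on NCD, 20.5 and 19.6 on MCD, -3.63 ± 0.47), the haemoglobin receptor gene Cd163 (-5.69), Dock1 (-2.87) and the efferocytosis receptor gene Mertk (-1.70). Cd36, Cd163 and Dock1 passed the low-count filter only through their NCD levels, so this count too is no support for a fall of the list. Cd163 lost its call without MCD 2 (-4.76, edgeR adjusted p = 0.366), Dock1 without NCD 2 (-2.76, 0.143) and Mertk without NCD 2 (-1.44, 0.0711) or MCD 1 (-1.53, 0.0539). Axl, at a log2 change of 0.04, did not pass the test.

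Genes of MHC class II presentation, by which macrophages show peptides to T cells, rose. Of 9 tested genes, 5 rose and none fell (median log2 change 1.27), beside 7.06% called higher and 6.33% lower over all tested genes. Cd74 was at 7644 and 5319 CPM on NCD and at 22178 and 23508 on MCD (log2 change 1.83 ± 0.20, SE, edgeR adjusted p = 1.57e-04), and it was called in 20 of 20 alternative analyses. H2-Ab1 was at 4024 and 2701 on NCD and 8834 and 9374 on MCD (1.44 ± 0.21, edgeR adjusted p = 7.95e-04). The MCD libraries lay close together and above both NCD libraries for each of these. H2-DMb1, which helps to load peptides, rose by 1.92 and H2-Eb1 by 1.23. The H2-DMb1 call was lost with thinning. H2-DMa rose by 0.88, a call lost without NCD 2 or MCD 2 (edgeR adjusted p = 0.1 and 0.0995). H2-Aa was at 8443 and 6469 on NCD and 9354 and 10239 on MCD and did not pass the test (0.41, edgeR adjusted p = 0.161).

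**Figure D5:**
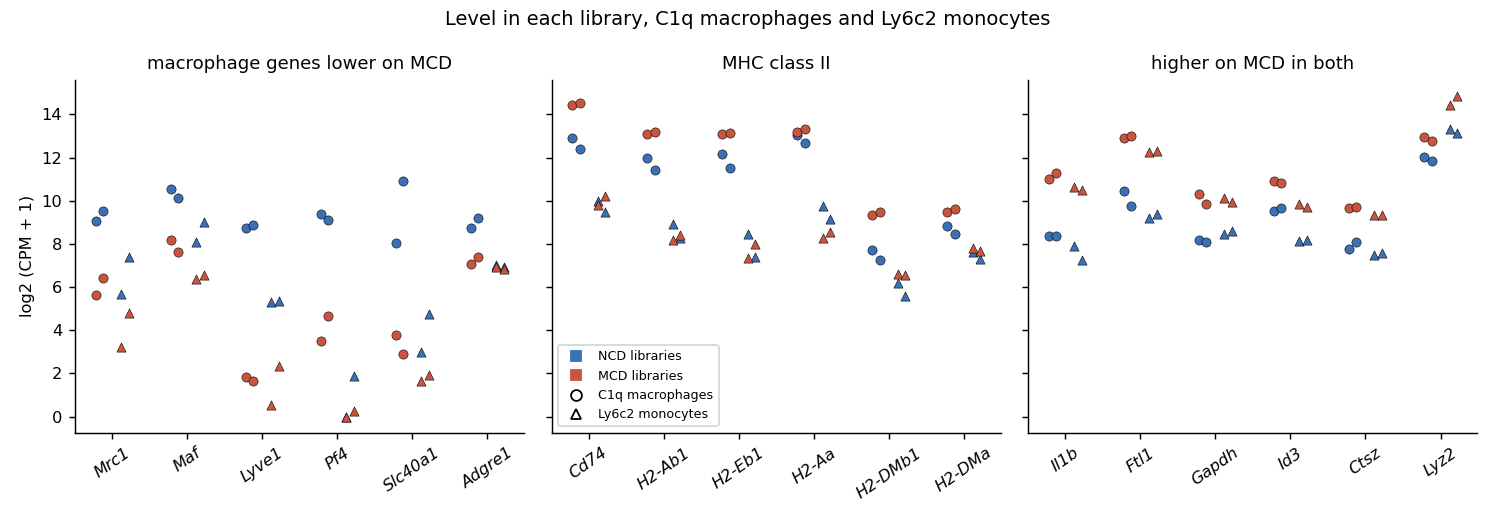
Level in each library (log2 of CPM plus 1) of genes named in the text, in C1q macrophages (circles) and Ly6c2 monocytes (triangles), blue for NCD and red for MCD libraries. In C1q macrophages Lyve1, Pf4 and Mrc1 are lower and Cd74, H2-Ab1, Il1b and Ftl1 higher in both MCD libraries than in both NCD libraries, while Cd74 in monocytes overlaps between the diets.

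Cytokine and chemokine genes were called in both directions. Of 14 tested cytokine and chemokine genes, 5 rose and 3 fell (median log2 change 0.98). Il1b, the interleukin 1 beta gene, was at 329 and 333 CPM on NCD and 2062 and 2465 on MCD (log2 change 2.79 ± 0.23, edgeR adjusted p = 1.52e-05). Tgfb1, a fibrogenic growth factor gene, was at 141 and 66.7 on NCD and 462 and 391 on MCD (1.94 ± 0.35, edgeR adjusted p = 0.00316), and the chemokine gene Ccl4 rose by 1.12. Ccl4 was not called without the cells with other-lineage markers (0.95, edgeR adjusted p = 0.218). Cxcl10, an interferon-induced chemokine gene, was at 950 and 100 on NCD and 94.9 and 115 on MCD. Its log2 change of -2.43 (edgeR adjusted p = 0.0149) rests on NCD 1 and was 0.18 without that library (edgeR adjusted p = 0.898). Of 20 tested interferon response genes, 2 rose and 1 fell. Over all tested genes 7.06% were called higher and 6.33% lower, so these counts say little about the list. The GTPase gene Iigp1, at 235 and 183 on NCD and 0 on MCD, was at least 61.3-fold lower on MCD against a floor of 3 counts. Its NCD UMIs lay in 4 and 2 cells, however, with 64% and 90.9% from 1 cell. It passed the low-count filter only through NCD, and Isg15 only through MCD. Isg15 rose by 1.85, and its call was lost without NCD 1, NCD 2 or MCD 2 (edgeR adjusted p between 0.0998 and 0.374).

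Among iron genes, the ferritin light chain gene rose and the iron exporter gene fell. Of 12 tested iron and haem genes, 3 rose and 2 fell (median log2 change -0.20). Over all tested genes 7.06% were called higher and 6.33% lower, beside which the list counts of this paragraph stand. Ftl1, the ferritin light chain, which stores iron, was at 1392 and 867 CPM on NCD and 7621 and 8164 on MCD (log2 change 2.79 ± 0.23, edgeR adjusted p = 1.52e-05). Ftl1 has close pseudogene copies in the mouse genome, so its counts are uncertain. Slc40a1 fell, as given above. Slc40a1 and Cd163 passed the low-count filter only through NCD, and Hp only through MCD. Of 10 tested glycolysis genes, 7 rose and none fell (median 1.51). With the GC trend removed 3 of the 10 were called higher, and DESeq2 called 4 higher. Gapdh was at 292 and 267 on NCD and 1280 and 926 on MCD (1.98 ± 0.26, edgeR adjusted p = 4.51e-04), and Eno1 at 18.8 and 0 on NCD and 267 and 191 on MCD (4.21 ± 0.64, edgeR adjusted p = 0.00102). Gapdh and Eno1 likewise have many processed copies. Eno1 passed the low-count filter only through its MCD levels, so its p-value is no independent support for a rise. Of 13 tested NRF2 and peroxide defence genes, 3 rose and none fell (median 0.78), among them the peroxidase gene Prdx5 at 94.0 and 117 on NCD and 1246 and 595.5 on MCD (3.16 ± 0.42, edgeR adjusted p = 4.25e-04). Slc7a11 and Gpx4, the remaining genes that rose, passed the low-count filter only through MCD. The count is therefore no support for a rise of the list.

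Immediate early genes, which also respond to cell dissociation, moved in the same contrast. Of 17 tested, 7 rose and 1 fell (median log2 change 0.84), and of 10 heat shock genes 3 rose (median 0.82). The shares over all tested genes were 7.06% higher and 6.33% lower. Dnajb1, 1 of the 3 heat shock genes, passed the low-count filter only through MCD. With the GC trend removed, 1 immediate early gene (Atf3) was higher and 3 lower, and 1 heat shock gene (Hspa8) was higher. Atf3 was at 263 and 200 CPM on NCD and 1064 and 1419 on MCD (2.40 ± 0.28, edgeR adjusted p = 1.90e-04), and Hspa8 rose by 1.62. The flow-responsive factor gene Klf2 fell by 1.36, a call lost without MCD 1 (edgeR adjusted p = 0.0542). The part of dissociation in the inflammatory genes was not tested.

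Among macrophage transcription factors, 16 were tested, 4 rose and 1 fell (median log2 change 0.06). The shares over all tested genes were 7.06% higher and 6.33% lower. Maf, a factor of mature macrophages, was at 1476 and 1117 CPM on NCD and 285 and 196 on MCD (-2.43 ± 0.26, edgeR adjusted p = 1.08e-04). Maf also fell by 2.05 without the members that had a Kupffer UMI and by 2.08 without those with markers of other lineages. Spi1, the gene of PU.1, rose from 245 and 233 to 646 and 489 (1.25, edgeR adjusted p = 0.0109), and Bhlhe40 from 37.6 and 33.3 to 210 and 239 (2.64, edgeR adjusted p = 0.00184). The Spi1 call was lost with the GC trend removed. Bhlhe40 passed the low-count filter only through its MCD levels, so its p-value is no independent support for a rise. Of 7 general macrophage markers, Lyz2 and Cd68 rose while Adgre1 and Mertk fell. Adgre1 was at 423 and 584 on NCD and 133 and 167 on MCD (-1.68 ± 0.28, edgeR adjusted p = 0.00196), and Cd68, at 0.95, lost its call without NCD 1, NCD 2 or MCD 2 (edgeR adjusted p between 0.0754 and 0.0806). Adgre1 encodes the antigen used in the sort, whose gate the labels give in 2 ways.

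The remaining lists moved less or in both directions. Over all tested genes 7.06% were called higher and 6.33% lower, so small counts here say little about a list. Of 21 tested lysosome genes, 3 rose, led by the protease gene Ctsz (216 and 267 on NCD, 805 and 839 on MCD, log2 change 1.81), and 4 fell, led by Ctsc (-0.99, lost without MCD 1 at an edgeR adjusted p of 0.0773). Of 13 tested lipid handling genes, Plin2, a lipid droplet coat gene, rose by 1.22 (lost without NCD 1 or NCD 2, edgeR adjusted p = 0.0707 and 0.0761), and Cd36 and the cholesterol exporter gene Abca1 fell. Abca1 fell by 1.70, a call lost without NCD 2 (edgeR adjusted p = 0.192). Of 15 tested lipid-associated genes outside the rule, 3 rose and none fell (median 0.48), with Lgals3, the galectin 3 gene, at 273 and 167 on NCD and 982 and 1300 on MCD (2.33 ± 0.29, edgeR adjusted p = 3.15e-04). The upper limit on related genes had removed far more MCD than NCD cells, so this list was partly shaped by the rule. Of 8 matrix genes, Tgfbi (320 and 383 on NCD, 1574 and 1067 on MCD, 1.94 ± 0.26) and Plaur rose and Timp2 and Mmp13 fell. Plaur passed the low-count filter only through MCD and Mmp13 only through NCD. Of 12 Fc receptor and Tyrobp genes 2 rose and 1 fell, of 19 receptor genes 2 rose and 1 fell, and of 3 cell cycle genes none was called. Of 5 tested Ly6C-high monocyte markers, Chil3, at 0 on NCD and 187 and 241 on MCD, was at least 12-fold higher and F13a1 fell by 2.39. Chil3 passed the low-count filter only through MCD and F13a1 only through NCD. The F13a1 call was lost without the cells that had a Kupffer UMI (-1.25, edgeR adjusted p = 0.379) and without those with other-lineage markers (-0.79, 0.559). Both tested endothelial markers, the 1 tested marker each of conventional dendritic cells type 1 and 2, and 3 of 4 markers of Ly6C-low monocytes were not called, and the lists of other lineages had no marker that passed the filter.

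The genes with the largest changes under the naming rule included several with few or no UMIs on NCD. Relb, an NF-kappa-B subunit gene, had none on NCD and stood at 94.9 and 73.9 CPM on MCD, at least 4.63-fold higher against a floor of 3 counts. Gtpbp4, Phb, Dtnbp1 and Arfgap2 were also at 0 on NCD and at least 3.26, 3.07, 2.87 and 2.80-fold higher. Relb lost its call without MCD 2 (edgeR adjusted p = 0.0731) and the other 4 without NCD 1 (edgeR adjusted p between 0.0764 and 0.109). Gadd45b, a stress response gene, was at 18.8 and 16.7 on NCD and 292 and 372 on MCD (log2 change 4.19 ± 0.50, edgeR adjusted p = 2.21e-04). Eif6 rose by 3.94 (lost without NCD 1 or MCD 2, edgeR adjusted p = 0.0946 and 0.0654), Erdr1, which has near-identical copies, by 3.70, and Cenpb by 3.42 (lost without NCD 2, edgeR adjusted p = 0.0711). Relb, Gtpbp4, Phb, Dtnbp1, Arfgap2, Gadd45b, Eif6, Erdr1 and Cenpb passed the low-count filter only through their MCD levels. Their p-values are therefore no independent support for a rise. Lilra5, a leukocyte receptor gene, was at 122 and 217 on NCD and 7.69 and 4.35 on MCD (-4.62 ± 0.57, edgeR adjusted p = 2.66e-04). Cd81 was at 715 and 1134 on NCD and 133 and 272 on MCD (-2.12 ± 0.34, edgeR adjusted p = 0.0013). Fam46a fell by 2.19, Tcf4 by 2.39, Ogt by 2.21 and Rad21 by 2.13. Lilra5, Rad21, Nfia and Amd1 passed the low-count filter only through their NCD levels. Their p-values are no independent support for a fall. Nfia fell by 4.41 and lost its call without MCD 1 or MCD 2 (edgeR adjusted p = 0.432 and 0.379), and Amd1 fell by 2.53 and lost it without NCD 2 (edgeR adjusted p = 0.0607).

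Whether a diet change in C1q macrophages differed from that in Ly6c2 monocytes of the same libraries was tested as a diet by population term with the library as a block. The monocytes numbered 126, 156, 179 and 391. Of 5719 genes tested, 216 or 3.78% had a term past an edgeR adjusted p of 0.05, with 178 (3.11%) above and 38 (0.664%) below 0. Without normalization the split was 66 above and 77 below, and the median term of all genes moved from 0.10 to -0.35, so directions are relative to that median. Of the class II genes, 6 of 10 tested terms were called above 0 and none below (median term 1.84). H2-Ab1 in monocytes was at 488 and 310 CPM on NCD and 291 and 339 on MCD, against the rise in C1q macrophages given above, for a term of 2.22 ± 0.17 (SE, edgeR adjusted p = 2.28e-08). Cd74 in monocytes was at 1009 and 708 on NCD and 892 and 1175 on MCD (term 2.00 ± 0.15, edgeR adjusted p = 2.28e-08). The terms of H2-Aa (1.90) and H2-Eb1 (1.99) were also past the threshold, and all 4 were called in 10 of 10 alternatives, the analysis without normalization among them. In all other cells of the libraries, however, Cd74 was at 2740 and 2205 CPM on NCD and 8129 and 8296 on MCD. H2-Eb1 was there at 1681 and 1103 on NCD and 2829 and 2831 on MCD. The rise of these genes was thus not limited to C1q macrophages, and the terms given here are relative to Ly6c2 monocytes.

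Other terms past the threshold went the other way. Apoe was at 4946 and 5285 CPM on NCD and 6575 and 7666 on MCD in C1q macrophages, and at 658 and 474 on NCD and 2508 and 3304 on MCD in monocytes (term -1.44 ± 0.17, edgeR adjusted p = 1.29e-05). Hmox1, the haem oxygenase gene, was at 132 and 884 on NCD and 115 and 222 on MCD in C1q macrophages and at 53.1 and 105 on NCD and 307 and 397 on MCD in monocytes (term -3.21 ± 0.40, edgeR adjusted p = 1.73e-05). The Hmox1 call was lost without the cells that had a Kupffer UMI (-1.58, edgeR adjusted p = 0.0744) and with thinning (-1.09, 0.279). Cd14, the lipopolysaccharide co-receptor gene, was at 263 and 267 on NCD and 249 and 354 on MCD in C1q macrophages and at 127 and 276 on NCD and 882 and 1279 on MCD in monocytes (term -1.90 ± 0.33, edgeR adjusted p = 8.15e-04). Cd14 lost the call without NCD 1 (term -1.26, edgeR adjusted p = 0.089) and without the cells that had a Kupffer UMI (-0.81, 0.568). For several of the strongest changes no difference between the populations was shown. The terms were -0.25 for Mrc1 (SE 0.45, edgeR adjusted p = 0.886), 0.10 for Maf (SE 0.34, 0.946), 0.26 for Il1b (SE 0.28, 0.775) and 0.22 for Ftl1 (SE 0.20, 0.74). In the monocytes these genes changed by -2.89, -2.55, 2.63 and 2.64 on the log2 scale, and all called genes there numbered 1629 of 7817 or 20.8%. The endothelial marker sum in the monocytes was 740 and 1402 on NCD against 261 and 322 on MCD, and its part in the falls of Mrc1 and Maf there was not tested. Lyve1, with a term of -3.08 (SE 1.06, edgeR adjusted p = 0.149), and Adgre1 (-1.18, SE 0.33, edgeR adjusted p = 0.0523) did not pass either.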

How the data were processed

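Liver monocytes and macrophages sorted from mice on NCD (2 libraries) or MCD (2 libraries) were sequenced with 10x single cell 3' v3 chemistry, per the labels' protocols. Deposited were counts, the authors' UMI counts per gene and barcode, made with Cell Ranger, per the submitters' processing notes (version 3.0.2, per the file headers) on build mm10. No source used here says how strands and overlapping genes were counted. The 27998 genes shared by all matrices were used. A minimum of 200 genes and a maximum of 10% mitochondrial UMIs left 9609 of 12306 barcodes, and no doublet call was made. UMIs of the C1q macrophages were summed per library and tested with edgeR 4.0.16 (R 4.3.3, quasi-likelihood, TMM, filterByExpr, Benjamini-Hochberg over all tested genes, adjusted p under 0.05), and the scripts were tested on simulated data. Levels are CPM, a gene's UMIs per 1000000 summed UMIs. Shares were tested by exact permutation over libraries, and thinning drew 1000 UMIs per cell with a fixed seed, leaving out shallower cells. Intervals and floors cover counting error only.

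The cells, the gene lists and the tests were chosen with earlier results of these data known. Named for diet were the 10 largest rises and 10 largest falls (5 each for the diet by population term) among called genes with at least 50 CPM in the higher diet, no overlap between diets and no cell giving over 25% of a library's UMIs. Left out of this naming were the 8 genes of the rule, the Kupffer genes, mitochondrial, ribosomal and predicted genes, and markers of other lineages. Lists were described by their counts and up to 4 genes with the smallest adjusted p. Of 429 list genes, 5 were not among the shared genes and were not analysed here. Results for some listed genes are not reported here. Alternatives were other scalings, no low-count filter, DESeq2 1.42.0, other C1q and mitochondrial limits, thinning, removal of the GC trend, a replicate block, removal of cells with Kupffer or other-lineage genes, and each library left out. Promoters and their coordinates are RefSeq's, build GRCm38.p6.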

Additional observations from a re-analysis of the deposited data

Results flagged for a closer look

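In 27 named genes the diet change in C1q macrophages differed from that in Ly6c2 monocytes of the same libraries by the diet by population term (log2, edgeR quasi-likelihood adjusted p under 0.05, 216 of 5719 genes or 3.78%). The terms of the class II genes H2-Ab1 (2.22), Cd74 (2.00), H2-Eb1 (1.99) and H2-Aa (1.90) were above 0. So were those of the monocyte gene Plac8 (1.73) and of the interferon response genes Ifit2 (3.32), Isg15 (3.31) and Rsad2 (2.20). Chil3 gave 9.39, a fitted value that rests on 0 UMIs in NCD C1q macrophages and is no measure of size.

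Among the genes named by size, terms above 0 were those of Utp11l (4.08), Runx3 (3.13), Smap1 (2.72), Bhlhe40 (2.34) and Mrpl24 (2.25). Terms below 0 were those of Jdp2 (-2.16), Tgfbr2 (-1.98), Fam46a (-1.90), Cd14 (-1.90) and Ogt (-1.81). Of these 10, Fam46a alone kept its call when any 1 library was left out. Runx3, Smap1, Bhlhe40, Mrpl24, Jdp2 and Ogt also lost their calls with thinning. Without normalization, Utp11l, Smap1, Bhlhe40 and Mrpl24 lost theirs.

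Also below 0 were the terms of F13a1 (-2.76), Hmox1 (-3.21), Slc40a1 (-3.77), Cfp (-2.01) and Apoe (-1.44). C4b (-6.59) and Iigp1 (-8.53) rest on 0 or few UMIs on MCD, and Fth1, the ferritin heavy chain gene, was at 0.59. Slc40a1, Fth1, Cfp, C4b, Iigp1, Ifit2 and Rsad2 lost their calls without at least 1 library. With thinning, F13a1 (term -2.03, edgeR adjusted p = 0.158), Hmox1, Slc40a1, Fth1, Cfp and Iigp1 lost theirs. So did Isg15 (term 2.28, edgeR adjusted p = 0.114), Rsad2 (1.435, 0.55) and Chil3 (0.012, 0.998). Rsad2 and Fth1 also lost theirs without normalization.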

How the results depend on the processing

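The counts of called genes in C1q macrophages differed between settings. Against 480 calls (253 higher and 227 lower on MCD), DESeq2 gave 173 (94 and 79), thinning to 1000 UMIs 253 (127 and 126), thinning with no upper limit 261 (134 and 127), a C1q threshold of 0.2% 866 (435 and 431) and one of 0.5% 233 (131 and 102). A mitochondrial limit of 20% gave 833 (433 and 400), and one of 5%, which left 6 and 2 NCD cells, 29 (26 and 3). Leaving out the cells with a Kupffer UMI gave 208 (120 and 88), and leaving out those with 2 or more other-lineage markers 210 (116 and 94). With no low-count filter 455 were higher, and with the GC trend removed 138 were. With each library left out in turn the calls were 305 to 408, higher 197 to 256 and lower 103 to 169, the fewest without MCD 1. The term against monocytes, with 216 calls (178 above and 38 below 0), gave 143 (66 and 77) without normalization and 140 with thinning, where 21 were below 0. Below 0 were 15 without the cells with a Kupffer UMI. With each library left out the terms called were 160 to 246, above 135 to 214 and below 20 to 43. The difference in the share of C1q macrophages was -0.115 points with thinning, -0.00221 with thinning and no upper limit, -0.236 at a C1q threshold of 0.5%, -1.40 at a mitochondrial limit of 20% and 0.166 with no upper limit, with -1.12 to -0.558 when each library was left out. The difference in the Kupffer-like share ranged from -15.8 to 1.43 when each library was left out, the last without NCD 2. Over all alternatives, 1610 of 2018 values of single genes kept direction and call, 394 lost the call and 14 turned direction. At the 5% mitochondrial limit these were Hpgd (0.11), Cfp (0.79), Ctsb (0.24), Grn (0.42), Lgmn (0.60), Abca1 (0.43), Ccl2 (0.39), Cxcl10 (7.24) and Cd300ld (7.22). With the GC trend removed they were Junb (-0.14), Jund (-0.20) and Cebpb (-0.38), with thinning and no upper limit Ccl24 (0.022), and without NCD 1 Cxcl10 (0.18, where its values with any library left out ran from -3.17 to 0.18). The causes were not tested, apart from the fewer cells that the 5% limit leaves. The replicate numbers are not stated to pair the libraries, and the differences between replicates 1 and 2 did not go together across the diets (correlation -0.0131 over 3586 genes). A fit with the replicate block called 575 genes (303 higher and 272 lower). Thinning with no upper limit and the GC correction were chosen after seeing the data. The NCD sums of 106357 and 59976 UMIs limit what could be called for genes low on NCD.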
